A study of Mus musculus with 4 samples.

Results

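The genes described here were 7 members of the mouse Ly6 family, Ly6a, Ly6c1, Ly6c2, Ly6d, Ly6e, Ly6g and Ly6k, chosen by name and not by their measured values, out of 19938 genes with a probe set of their own on the array. All probe sets whose platform annotation lists a member were used, also where it lists several symbols. That gave 6 probe sets for 6 of the 7 members. Ly6d, Ly6e, Ly6g and Ly6k each had 1 probe set (10429520, 10424676, 10424683 and 10429528). Ly6c1 and Ly6c2 were listed together on probe sets 10429568 and 10429573, so no value belongs to either gene alone. No probe set was listed for Ly6a, the Sca-1 gene, by symbol, Entrez identifier or accession, and its level is not analysed here.

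Transcripts were measured on 4 Affymetrix arrays, 2 of Klf7-/- cells and 2 of Klf7+/+ cells, called knockout and wild-type arrays below by these labels alone, since the Klf7 signal was not lower on the arrays labelled Klf7-/-. All 4 held cells of bone marrow from the KLS (Lin- c-Kit+ Sca-1+) gate, which holds blood stem cells and early progenitors, on a C57Bl/6 background. Klf7 encodes a Kruppel-like zinc finger transcription factor. Both genotypes came from chimeric mice, made with fetal liver cells, whose marrow mixed knockout and wild-type cells. Sex-linked transcripts given below divided the genotypes, so this source does not mean that they shared fetal liver donors. Those transcripts do not tell whether the genotypes were sorted from the same chimeric mice. The labels give neither the age nor the number of the mice or embryos, nor the deleted part of Klf7. Replicates may therefore be technical, and p-values measure only the spread between these arrays. Since every array held cells sorted with an antibody to Sca-1, the level of Ly6a would have been set partly by the gate.

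Ly6 proteins are small, cysteine-rich proteins, most of them tethered to the outer cell membrane by a glycosylphosphatidylinositol (GPI) anchor. In mouse blood they serve mainly as markers: Sca-1 marks stem and multipotent progenitor cells, Ly6C marks monocytes and some other leukocytes, Ly6G marks neutrophils, and Ly6D marks lymphoid progenitors biased towards the B lineage. Several, among them the Sca-1 gene, the Ly6c genes and Ly6e, are induced by interferons. All 7 genes lie in one cluster on chromosome 15, and KLF proteins bind DNA at GC-rich and CACCC elements.

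RefSeq (build GRCm38.p6) promoter windows were at hand for 3 of the 7 members, Ly6c1, Ly6c2 and Ly6g, each with 2 windows of 300 bases that run from 250 bases before a start site to 50 after it. They were searched on both strands for CACCC, the box that KLF proteins bind, which occurs in 57.5% of the 32851 promoter windows of the RefSeq table. The windows below are the ones of these 6 that hold a match, shown because Ly6c1 and Ly6c2 share their probe sets. The Ly6c1 matches lie past the sequence at which the Ly6c2 windows end. The windows thus cover unlike stretches, and their counts of matches are not compared. Capitals mark CACCC or its reverse complement GGGTG, and each window is written 5′ to 3′ on the strand of its gene.
Ly6c1, second start, chr15:75048614-75048913, minus strand: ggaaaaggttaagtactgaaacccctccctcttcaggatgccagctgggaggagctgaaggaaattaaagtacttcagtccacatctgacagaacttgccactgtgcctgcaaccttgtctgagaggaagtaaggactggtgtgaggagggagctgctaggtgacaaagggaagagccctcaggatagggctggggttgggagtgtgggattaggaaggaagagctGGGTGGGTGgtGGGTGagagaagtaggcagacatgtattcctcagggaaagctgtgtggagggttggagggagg
Ly6c2, first start, chr15:75111922-75112221, minus strand: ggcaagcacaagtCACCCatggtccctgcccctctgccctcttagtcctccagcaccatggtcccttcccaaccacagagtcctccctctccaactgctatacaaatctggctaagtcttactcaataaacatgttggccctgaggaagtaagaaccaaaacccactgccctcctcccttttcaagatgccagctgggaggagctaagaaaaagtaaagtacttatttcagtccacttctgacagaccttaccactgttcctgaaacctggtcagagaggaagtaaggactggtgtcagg
The Ly6c1 window holds 3 matches, all as GGGTG, whose first bases lie at -24, -20 and -13 from the start site, and the matches at -24 and -20 share a base. The Ly6c2 window holds 1, as CACCC, at -237. Neither Ly6g window holds these letters. These are matches of letters and not measured sites.

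None of the 6 probe sets differed between the genotypes in limma (Benjamini-Hochberg adjustment over 28939 probe sets, threshold 0.05), where 0.00346% of all probe sets, 1 in number, passed. None had an unadjusted p under 0.05, which 5.01% of all probe sets had. On none of the 6 did the knockout arrays lie wholly above or wholly below the wild-type arrays. Over all probe sets, 33.6% separated the groups in that way, and random order alone would give 0.333 for 2 arrays against 2. Both Ly6c probe sets read the same genes, so the 6 are not independent. The difference, knockout minus wild type in log2 intensity, was negative for 4 probe sets and positive for 2, with a median of -0.06 against -0.03 over all probe sets. With 2 arrays per group an exact two-sided permutation test cannot go below 0.333.

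**Figure D1:**
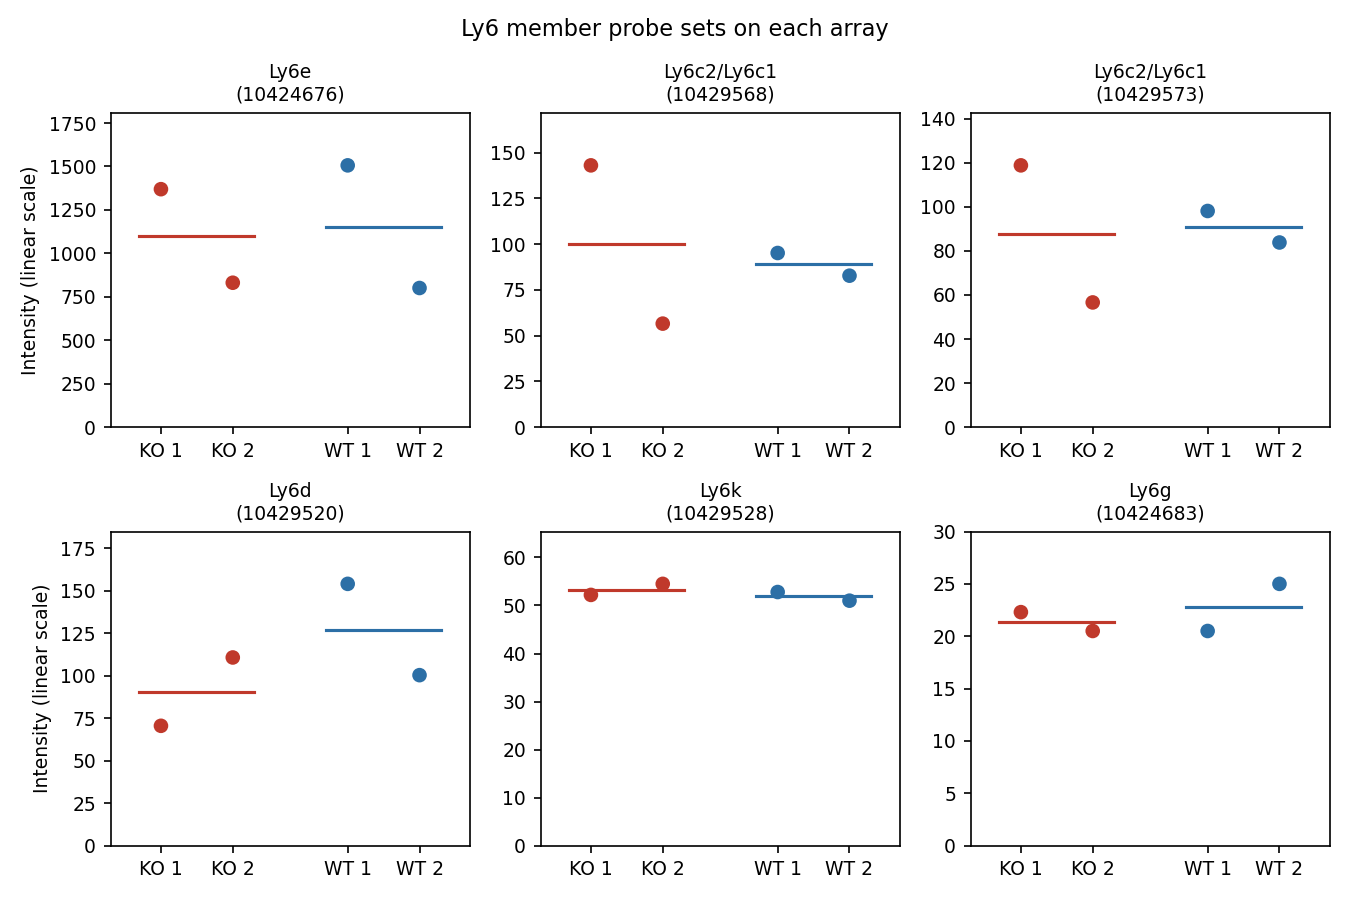
Intensity (linear scale) of the 6 Ly6 member probe sets on the knockout (KO) and wild-type (WT) arrays; points are arrays and bars are group means. In every panel the points of the 2 groups overlap, and for Ly6e both arrays numbered 1 stand above both numbered 2.

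Ly6e, which encodes a broadly expressed surface protein first described on thymocytes, varied more between arrays of one genotype than between the genotypes. Its intensity was 1369.3 and 831.0 on the knockout arrays, against 1506.3 and 800.7 on the wild-type arrays. In each genotype one array was bright and the other dim, and the dim arrays of both genotypes were close to each other. The group means were 1100.2 ± 381 in knockout and 1153.5 ± 499 in wild type (SD, n = 2 each). On the log2 scale the arrays of one genotype lay 0.72 apart in knockout and 0.91 apart in wild type, while the genotypes differed by -0.04 ± 0.41 (SE; limma adjusted p = 1.000). The 95% confidence interval of that difference, as a fold of knockout over wild type, ran from 0.46 to 2.05. A 2-fold change in either direction lay within it and was not excluded. In both genotypes it was the array numbered 1 that was bright. The labels do not say that equal numbers share a mouse or a day. Within equal numbers the log2 difference was -0.14 for number 1 and 0.05 for number 2. Leaving out any array gave a larger difference than all 4 arrays did: -0.40 without knockout 1, 0.32 without knockout 2, 0.41 without wild type 1 and -0.50 without wild type 2.

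The shared Ly6c1 and Ly6c2 probe sets spread most within the knockout group. These genes encode the Ly6C antigens of monocytes and other leukocytes. Probe set 10429568 read 143.1 and 56.6 on the knockout arrays, against 95.2 and 82.8 on the wild-type arrays. Probe set 10429573 read 118.8 and 56.6 in knockout, against 98.1 and 83.8 in wild type. On both, the knockout arrays were the brightest and the dimmest of the 4, with the wild-type arrays between them. The knockout arrays differed by 2.53 times on 10429568 and by 2.10 times on 10429573, compared with 1.15 and 1.17 times for the wild-type arrays. The genotype difference was 0.02 ± 0.47 on 10429568 and -0.15 ± 0.39 on 10429573 in log2 (SE, limma adjusted p = 1.000 and 0.997). Its direction rested on single arrays: 10429568 stood at -0.65 without knockout 1 and at 0.69 without knockout 2, and 10429573 stood at -0.68 and 0.39.

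**Figure D2:**
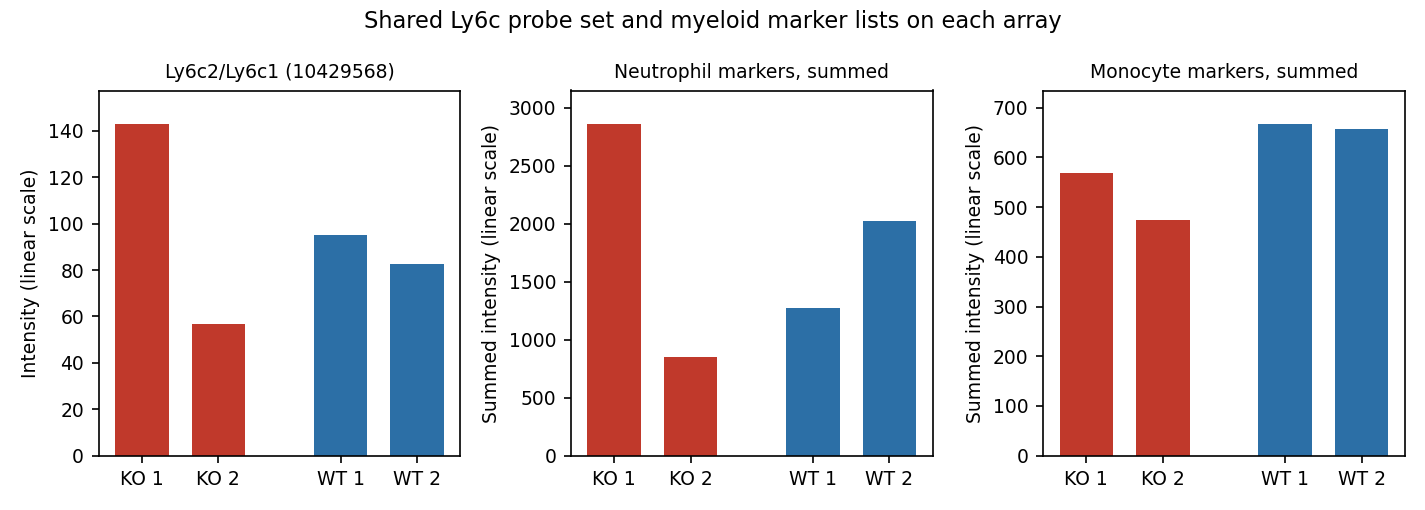
Linear intensity of the shared Ly6c probe set 10429568 (left) and the summed intensity of 10 neutrophil markers (middle) and 7 monocyte markers (right) on the knockout (KO) and wild-type (WT) arrays; each bar is 1 array. Knockout 1 is highest and knockout 2 lowest for both the Ly6c probe set and the neutrophil sum, to which S100a9 gives the most. The monocyte sum is highest in wild type and, like the other panels, lowest on knockout 2.

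Markers of mature myeloid cells moved with the Ly6c signal on some arrays. The summed intensity of 10 neutrophil markers was 2864 and 855 on the knockout arrays, against 1272 and 2025 on the wild-type arrays. Knockout 1 was thus highest and knockout 2 lowest in the neutrophil sum, as for Ly6c, while the order of the wild-type arrays was the other way round. The alarmin gene S100a8 read 770.8 and 186.4 in knockout, against 323.5 and 383.4 in wild type. S100a9, the other alarmin gene, read 1347.9 and 259.6 in knockout, against 446.8 and 1091.0 in wild type. It was the brightest of the 10 on every array, so the order of the sums rests largely on this gene. Ngp, a granule protein gene, was also brightest on knockout 1 but dimmest on wild type 2. It read 263.6 and 135.4 in knockout, against 152.9 and 119.0 in wild type. The granule peptide gene Camp read 215.8 and 63.3 in knockout, against 80.4 and 82.8 in wild type. Retnlg, a resistin-like gene of neutrophils, was lower on both knockout arrays, at 60.8 and 50.7, against 133.5 and 141.5 in wild type (limma adjusted p = 0.814). Of the 10 markers, 5 exceeded the all-gene median, and the integrin gene Itgam, which encodes CD11b, was not among them at 41.0 and 37.0 in knockout, against 31.1 and 45.2 in wild type. The 7 monocyte markers summed to 569 and 474 in knockout, against 668 and 658 in wild type, and 6 of them were lower in knockout, none past the threshold. Ms4a6c read 123.6 and 141.5 in knockout, against 204.6 and 207.9 in wild type, and the lysozyme gene Lyz2 read 194.5 and 96.9 in knockout, against 217.6 and 181.6 in wild type. The chemokine receptor gene Cx3cr1 read 98.9 and 83.9 in knockout, against 86.5 and 96.3 in wild type. The monocyte receptor gene Csf1r lay below the median, at 41.0 and 50.0 in knockout, against 46.0 and 58.0 in wild type. In such bulk samples fewer cells of a type and less RNA per cell cannot be told apart. The part of these cells in the Ly6c values was not tested.

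Ly6g, which encodes the neutrophil antigen Ly6G, read 22.3 and 20.5 on the knockout arrays, against 20.5 and 25.0 on the wild-type arrays. It was the only member probe set dropped by a filter at the median of all probe sets: its log2 values ran from 4.36 to 4.64, where that median was 5.71 and 5% of probe sets lay under 3.15. The log2 difference was -0.08 ± 0.18 (SE, limma adjusted p = 0.992), with a confidence interval of -0.56 to 0.39. The array with the highest neutrophil sum, knockout 1, was not the one with the highest Ly6g intensity.

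Ly6d, whose protein marks B-biased lymphoid progenitors, had the largest genotype difference among the 6 probe sets, and that difference did not pass the threshold. It read 70.5 and 110.7 on the knockout arrays, against 154.0 and 100.3 on the wild-type arrays. Knockout 2 and wild type 2 lay close together, so the groups overlapped, and the remaining arrays were the dimmest in knockout and the brightest in wild type. Means were 90.6 ± 28.4 in knockout and 127.1 ± 37.9 in wild type (SD, n = 2 each), and the log2 difference was -0.49 ± 0.33 (SE; 95% confidence interval -1.36 to 0.38; limma adjusted p = 0.953). It stood at -0.17 without knockout 1, -0.82 without knockout 2, -0.18 without wild type 1 and -0.80 without wild type 2, so its sign held while its size moved by more than 1.5 times with each array. Of the other B lineage genes named here, Igll1 had the order of Ly6d and the rest did not. Vpreb1, a surrogate light chain gene of the pre-B cell receptor, read 384.5 and 45.0 in knockout, against 47.6 and 40.7 in wild type, so it was brightest on the knockout array on which Ly6d was dimmest. Igll1, the other surrogate light chain gene, read 51.1 and 64.3 in knockout, against 90.4 and 59.9 in wild type, with its highest and lowest readings on the same arrays as Ly6d. Cd79b, a chain of the B cell receptor, read 88.3 and 59.0 in knockout, against 87.7 and 75.8 in wild type. Ebf1, a B lineage transcription factor gene below the all-gene median, read 22.5 and 18.9 in knockout, against 15.8 and 16.5 in wild type. The 7 B cell markers measured summed to 632 and 270 in knockout, against 325 and 284 in wild type, and none passed the threshold. The sum was highest on knockout 1, where Ly6d was dimmest. Vpreb1 alone gave 384.5 of it there, so that place rests on 1 gene on 1 array. The part of these markers in the Ly6d values was not tested.

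Ly6k, a gene known in mouse for its role in sperm function, varied least over the 4 arrays among the members measured. It read 52.2 and 54.5 on the knockout arrays, against 52.8 and 51.0 on the wild-type arrays. The arrays of one genotype differed by 1.04 times in both groups. The log2 difference was 0.04 ± 0.15 (SE, limma adjusted p = 0.997), and its confidence interval as a fold of knockout over wild type ran from 0.78 to 1.36. Of the 6 probe sets this was the narrowest interval, whereas that of Ly6c probe set 10429568 ran from 0.43 to 2.39. The log2 values of Ly6k, 5.67 to 5.77, lay near the medians of 5.71 over probe sets and 5.77 over genes. Ly6i, a dimmer gene of the same cluster, had the same SE of 0.15. Whether the Ly6k signal lay above background was not tested.

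**Figure D3:**
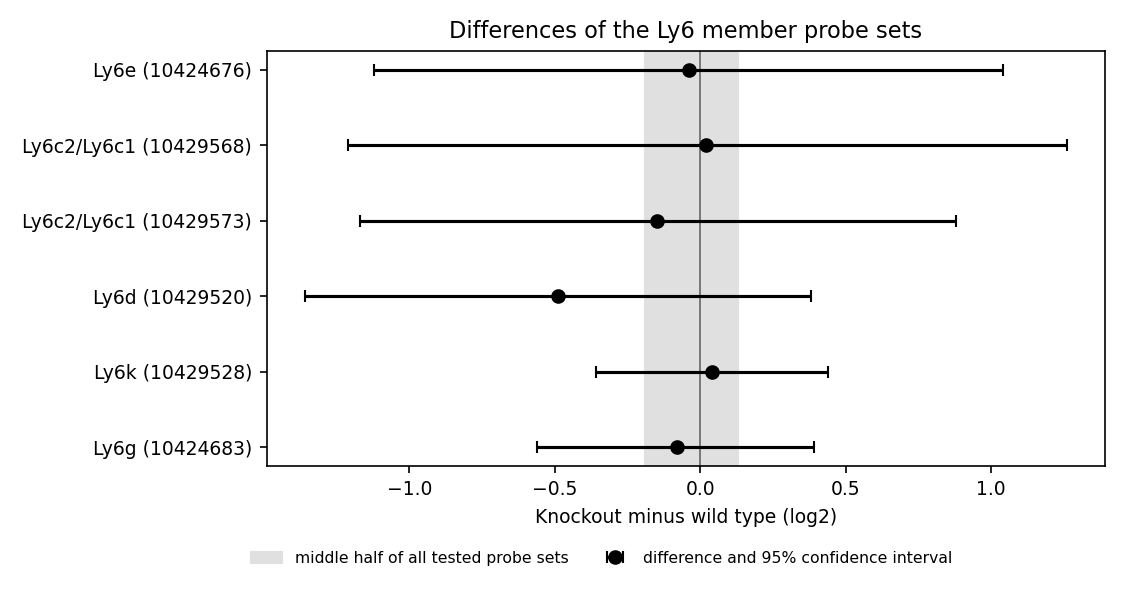
Knockout minus wild type in log2 intensity for the 6 Ly6 member probe sets, with 95% confidence intervals from limma (2 arrays per group); the grey band spans the quartiles of all 28939 tested probe sets, -0.19 to 0.13. All 6 intervals include 0, and Ly6d lies furthest from it at -0.49.

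**Figure D4:**
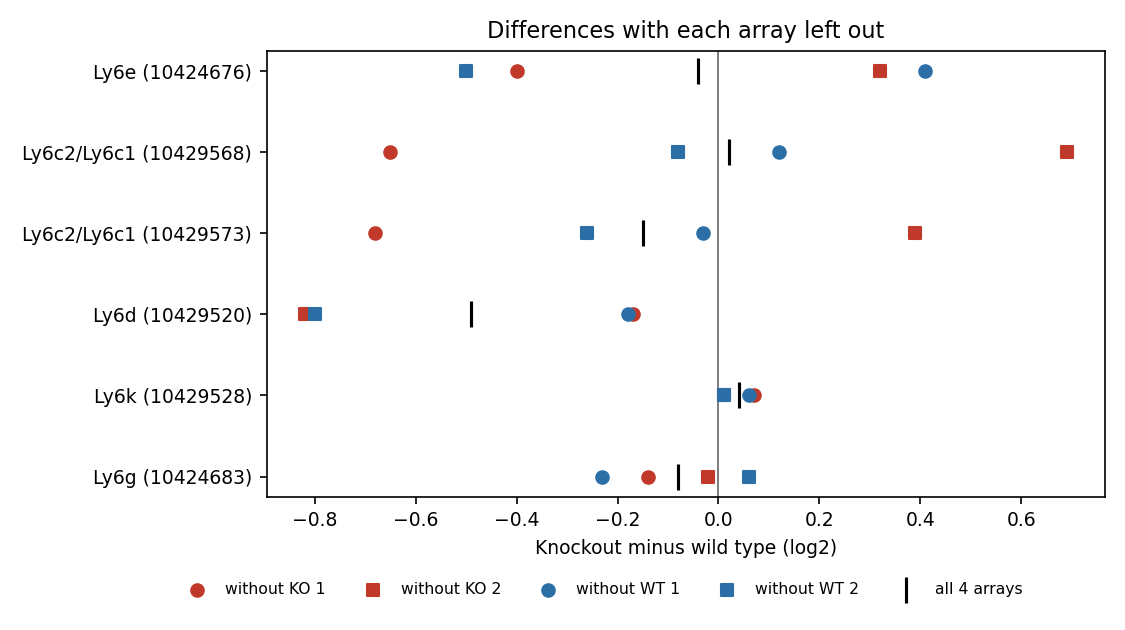
Knockout minus wild type in log2 intensity for each member probe set with all 4 arrays (black tick) and with 1 array left out (circles for arrays numbered 1, squares for arrays numbered 2, coloured by the genotype left out). The Ly6e values run from -0.50 to 0.41, those of Ly6d stay below 0, and those of Ly6k lie between 0.01 and 0.07.

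The genes whose profile over the 4 arrays was most like that of a member were found by the root mean square distance between log2 values centred on each gene's own mean, searching only genes above the all-gene median (9968 for Ly6e and Ly6d, 9969 for the Ly6c probe set). With 4 arrays, close matches are easy to find, and they are given as a description. For Ly6e the nearest were the sorting nexin gene Snx3 at a distance of 0.02, Nelfcd at 0.04 and Ttpal at 0.05. Snx3 read 307.4 and 181.6 in knockout, against 332.6 and 172.8 in wild type, and so had the same bright and dim arrays as Ly6e. For Ly6d they were Avpi1 at 0.01, the prefoldin subunit gene Pfdn1 at 0.04 and Nfkbiz, which encodes a nuclear IkB protein, at 0.04. Nfkbiz read 158.4 and 252.2 in knockout, against 358.3 and 216.8 in wild type. For the Ly6c probe set they were Xpot, the tRNA exportin gene, at 0.02, Ethe1 at 0.04 and Rab9 at 0.06. No other Ly6 gene was among these 9.

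Genes that lie between the members on chromosome 15 gave no change past the threshold. The stretch from Ly6d to Ly6g holds 15 protein-coding genes in RefSeq, of which 8 are not among the members, and 7 of these had a probe set of their own. All 7 lay below the median of all genes. Their log2 differences ran from -0.45 for Gml to 0.32 for Ly6a2, with 0 past the threshold. The groups did not overlap in 3 of the 7, where 33.2% of all genes did not overlap. Gml read 40.0 and 35.0 on the knockout arrays, against 46.6 and 56.2 on the wild-type arrays. Ly6a2 read 27.4 and 21.8 in knockout, against 17.8 and 21.5 in wild type. Ly6i, which lies between Ly6e and Ly6a, read 15.0 and 15.8 in knockout, against 14.5 and 14.6 in wild type. The steroid enzyme genes Cyp11b1 and Cyp11b2, which sit inside the cluster, differed by 0.01 and 0.06.

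The wider family of Ly6 and urokinase receptor (uPAR) genes gave no change past the threshold either. Of 40 genes measured, 14 lay above the median of all genes. In knockout 18 were higher and 22 lower, with 0 past the threshold in either direction and a median of -0.04 against -0.03 over all genes. In 15 of the 40 the groups did not overlap, 6 higher and 9 lower, and 33.2% of all genes behaved likewise. Plaur, the urokinase receptor gene, read 103.8 and 195.1 in knockout, against 102.8 and 146.7 in wild type, with the array numbered 2 brighter in each genotype, the reverse of Ly6e. Lypd9 differed by -0.24 ± 0.22 and Slurp2 by 0.22 ± 0.17 (SE, n = 2 per group; limma adjusted p = 0.960 and 0.955).

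Since most Ly6 proteins need a GPI anchor, the 30 genes of anchor synthesis and remodelling were read beside them. Of these, 10 were higher and 20 lower in knockout, with a median of -0.09 and 0 past the threshold in either direction. The groups did not overlap in 7 of the 30, 1 higher and 6 lower, where 33.2% of all genes did not overlap. Dpm1, a subunit of the enzyme that makes the mannose donor for the anchor, read 298.1 and 228.1 in knockout, against 534.2 and 307.3 in wild type, a difference of -0.64 ± 0.33 (SE, limma adjusted p = 0.949). Dpm2, its partner subunit, read 184.5 and 149.4 in knockout, against 147.3 and 363.6 in wild type, where a single array was high. Pigx, a subunit of an anchor mannosyltransferase, differed by 0.44 ± 0.42 and read 223.0 and 236.3 in knockout, against 254.6 and 112.5 in wild type. Other surface antigens of blood cells, most but not all of them GPI-anchored, moved both ways. Of 13, 7 were higher and 6 lower, with a median of 0.01 and 0 past the threshold. Cd48, which encodes a ligand of the SLAM family, read 377.1 and 494.7 in knockout, against 270.1 and 343.8 in wild type. Thy1 read 79.1 and 90.7 in knockout, against 105.9 and 132.2 in wild type. Cd52 read 240.7 and 98.2 in knockout, against 210.1 and 326.6 in wild type, where the groups overlapped. In Cd48 and Thy1 the groups did not overlap, and neither passed the threshold. In all, 8 of the 13 did not overlap, 3 higher and 5 lower, against 33.2% of all genes.

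Interferon response genes, the group to which several Ly6 genes belong, held no member past the threshold. Of 37 measured, 23 were higher and 14 lower in knockout, with a median of 0.05. Their summed intensity was 9326 and 10731 on the knockout arrays, against 10125 and 10650 on the wild-type arrays. The arrays on which Ly6e was bright had the lower sum in each genotype, an order that rests on Ifitm2 and Ifitm3. Ifitm2 read 957.9 and 2467.0 in knockout, against 935.7 and 787.5 in wild type. Ifitm3 read 2001.9 and 2020.4 in knockout, against 2645.4 and 3653.3 in wild type. Ifitm1, which encodes an antiviral membrane protein, read 667.4 and 471.3 in knockout, against 1200.5 and 1355.0 in wild type, a difference of -1.19 ± 0.23 (SE, limma adjusted p = 0.945). Irgm1, an interferon-induced GTPase gene, read 97.5 and 71.2 in knockout, against 127.1 and 269.6 in wild type, a difference of -1.15 ± 0.41 (SE, limma adjusted p = 0.945). Rtp4, an interferon-induced gene, read 309.7 and 161.9 in knockout, against 63.5 and 236.0 in wild type. Among 9 receptors and signalling genes of the pathway, 4 were higher and 5 lower, with 0 past the threshold. Ifnar1, a chain of the type I interferon receptor, read 135.4 and 134.9 in knockout, against 76.7 and 113.5 in wild type. Ifngr2, a chain of the type II interferon receptor, read 95.1 and 198.9 in knockout, against 116.9 and 90.0 in wild type. The kinase gene Jak2 read 168.2 and 225.0 in knockout, against 218.9 and 101.9 in wild type.

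The arrays as a whole bear on these values in a few ways. Of the gate's positive markers only Kit could be read, since Ly6a had no listed probe set. It was at 1112.5 and 971.6 in knockout, against 749.8 and 840.1 in wild type. Cd34, which is not part of the gate and marks progenitors, read 1209.4 and 1190.9 in knockout, against 801.7 and 762.1 in wild type. Flt3, a receptor gene of multipotent progenitors, read 950.3 and 851.3 in knockout, against 716.8 and 576.9 in wild type. Mecom, a stem cell transcription factor gene, lay the other way with the largest difference of the list, at 76.0 and 70.0 in knockout, against 146.9 and 96.3 in wild type. Of 10 stem and progenitor markers, 8 were higher and 2 lower in knockout, and 0 passed the threshold. The groups did not overlap in 8 of the 10, 7 higher and 1 lower, where 33.2% of all genes did not overlap. Of 6 T cell markers, all were lower in knockout, with summed intensities of 239 and 250 in knockout, against 258 and 278 in wild type, and 0 passed. Among 4 natural killer, 4 plasmacytoid dendritic, 5 erythroid and 5 megakaryocyte markers, 0 passed as well. Klf7 itself read 96.5 and 72.6 on the knockout arrays, against 61.6 and 68.6 on the wild-type arrays, so both arrays labelled knockout were above those labelled wild type. The log2 difference was 0.36 ± 0.21 (SE, limma adjusted p = 0.950), in the direction opposite to a loss of the transcript. Its confidence interval ran from -0.18 to 0.91, so neither direction was excluded, and 33.2% of all genes likewise did not overlap. Whether the labels are right was not tested. The labels do not say whether the probe set lies in the deleted part, and every direction above is between arrays labelled knockout and arrays labelled wild type. The single probe set past the threshold was that of Xist, the RNA of the inactive X chromosome, at 3460.1 and 3066.8 in knockout, against 37.8 and 27.8 in wild type, with a limma adjusted p of 0.045. The Y-linked gene Uty lay the other way, at 10.1 and 11.5 in knockout, against 70.2 and 89.4 in wild type. Genotype and these sex-linked transcripts divided the arrays alike, so the genotype and the sex of the cells cannot be told apart in any value given here.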

How the data were processed

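The authors deposited 1 table with an intensity per probe set for each of the 4 arrays. The submitters' processing notes name RMA and Affymetrix Expression Console, with no settings. RNA had been amplified with the NuGen Ovation system, per the labels' protocols. The intensities reached 19067.2, so they were read as linear, and log2 was taken. Median intensity per array was 51.01 to 52.26. The table held 35554 probe sets. Its leading 6615, all before any annotated one, were assumed to be controls, and the other 28939 were tested. Groups came from the sample titles. The comparison of knockout with wild type used limma 3.58.1 under R 4.3.3 (lmFit, eBayes, 2 residual degrees of freedom, two-sided), adjusted over all probe sets tested, and checked on simulated data. No filter on dim values was applied. For genes that are not members, the brightest probe set of 1 symbol was used. The number of arrays limits the precision, and detection calls were not used here. Of each list, members past the threshold were named, or else up to 3 above the median of all genes with the largest absolute difference. Itgam, S100a8, Csf1r, Ebf1, Kit, Gml, Ly6a2 and the other genes between the members were named as markers or by position. S100a9, Ifitm2 and Ifitm3 were named for their share of a sum. The members, lists and rules were chosen with earlier results of these data known.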

Additional observations from a re-analysis of the deposited data

How the results depend on the processing

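No member probe set passed the threshold in limma under any of 11 alternatives, where the limma fit as reported had 0 member probe sets and 1450 of all probe sets at an unadjusted p under 0.05. The lowest adjusted p of a member in any alternative was 0.847, for Ly6e without wild type 1. Over all probe sets the count of 1 became 0 with quantile normalization again, an offset of 32, an intensity trend, the replicate block and the leading probe sets kept, and ran from 0 to 0 when each array was left out, a fit in which a group of 1 array takes its spread from the other group; the cause was not tested. Deviations of same-numbered arrays correlated at 0.0434 across probe sets. Whether equal numbers share a mouse or a day was not tested. The number of member probe sets without overlap was 1 with quantile normalization again and 1 with cyclic loess (Ly6k in both), where 33.8% and 34.1% of all probe sets did not overlap. It ranged from 2 to 4 of 6 when each array was left out, which leaves fewer arrays to overlap: 64.2% to 70% of all probe sets then did not. Of 66 member values, 58 kept their sign and their side of the threshold and 8 changed sign. Without an array, differences ran from -0.50 to 0.41 for Ly6e, from -0.23 to 0.06 for Ly6g, from -0.65 to 0.69 for Ly6c probe set 10429568 and from -0.68 to 0.39 for 10429573. Probe set 10429568 stood at -0.03 with quantile normalization again and at -0.06 as the mean of both probe sets. Ly6d and Ly6k kept their sign in all alternatives. Signal over background was not used here, which leaves the limit for dim probe sets such as Ly6g unmeasured.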
